A study of Rattus norvegicus with 372 samples.

Results

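The nuclear encoded subunits of the mitochondrial respiratory chain and of ATP synthase were followed in primary rat hepatocytes exposed to 14 chemicals. The probes were taken from the whole-transcriptome TempO-Seq assay (WT), in which pairs of detector oligos are ligated on a target RNA and counted by sequencing. A probe was taken if its symbol began with NDUFA, NDUFB, NDUFC, NDUFS, NDUFV, UQCR, COX4I, COX5, COX6, COX7, COX8 or ATP5, or was SDHA, SDHB, SDHC, SDHD, CYC1 or CYCS. Complex I assembly factors and LOC or pseudogene names were left out. Of 22253 probes, 82 matched, and 66 of these, each for a different gene, had a mean count of at least 10 over all wells. They belong to the 10689 probes that passed this minimum and were tested together. By name, 32 belong to complex I, 4 to complex II, 7 to complex III, 10 to complex IV and 13 to complex V. The choice by name and mean count used no difference between treatments, and earlier results of these data were known when it was made.

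The hepatocytes came from male Wistar rats and were cultured in a collagen sandwich, and each of 2 batches used the cells of 1 rat. Cells were exposed for 24 h to acetaminophen (400 and 10000 µM), caffeine (400 and 10000 µM), chloramphenicol (18 and 450 µM), diclofenac (16 and 400 µM), doxorubicin (0.08 and 2 µM), indomethacin (12 and 300 µM), isoniazid (400 and 10000 µM), ketoconazole (0.6 and 15 µM), naproxen (80 and 2000 µM), ranitidine (160 and 4000 µM), simvastatin (2.4 and 60 µM), sulfasalazine (4 and 100 µM), valproic acid (400 and 10000 µM) or WY14643 (8 and 200 µM), an agonist of the nuclear receptor PPARα. Every treated and vehicle well held 0.5% DMSO, and medium wells held none. Each treatment had 3 wells per batch, whereas vehicle and medium each had 3 wells in batch 1 and 6 in batch 2. Wells of a batch are technical replicates, so the p-values measure the spread between wells, and the animals number 2. All treatments were compared with the same vehicle wells. In batch 1 these stood on plate 4 only, and ketoconazole, WY14643, acetaminophen, indomethacin, sulfasalazine and chloramphenicol were on plate 5.

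WT libraries held 2289425 to 8975207 reads (median 6840355.5), the fewest in a medium well of batch 2. The hepatocyte label was checked against 8 markers (Alb, Apoa1, Tf, Ttr, Serpina1, Cps1, Hnf4a and Tat). All 8 were tested, none was at 0 in any well, and together they took 3.71 to 4.43% of the reads in vehicle wells. Markers of endothelial cells (at most 0.00055% of reads) and muscle (at most 0.000171%) were near 0. Biliary markers took at most 0.00772%, and among them Epcam (mean count 199) and Sox9 (31.2) were above 0 in every well, whereas the keratin Krt7 was at 0 in 183 and 185 of all wells (90 in batch 1 and 96 in batch 2) by its 2 probes. Kupffer cell and leukocyte markers took at most 0.00728%, stellate cell and fibroblast markers at most 0.0161%. In such cultures fewer cells of a type and less RNA per cell cannot be told apart.

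The respiratory chain passes electrons from NADH (complex I) and succinate (complex II) through complex III and cytochrome c to oxygen at complex IV. Complexes I, III and IV pump protons across the inner mitochondrial membrane, and complex V, the ATP synthase, makes ATP as they flow back. Complexes I, III, IV and V are built from nuclear encoded subunits and a few encoded by mitochondrial DNA, and complex II is encoded in the nucleus alone. Transcription of the nuclear genes is known to depend on NRF1, on ETS family factors such as GABP, on YY1 and on the estrogen related receptors, with coactivators of the PGC-1 family. Hepatocytes rely on oxidative phosphorylation, and PPARα drives fatty acid oxidation in liver.

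Because many members moved together with some treatments, their promoters were searched for sites of these factors. RefSeq (GRCr8) windows from 250 bases before to 50 after the gene start were held for 59 of the 66 members, the exceptions being Atp5pd, Cox6a1, Cox6c, Cyc1, Ndufa8, Ndufb9 and Uqcrb. On both strands, the NRF1 motif GCGCANGCG stood in 17 windows (28.8%), against 6.26% of all 27457 windows. The ETS motif CCGGAAG stood in 16 (27.1%, against 9.22%), the YY1 motif AAGATGGCG in 8 (13.6%, against 1.93%) and the ERR alpha motif TCAAGGTCA in 2 (3.39%, against 0.412%). In all, 35 windows held at least 1 of the 4 motifs. A match describes letters in the window and not binding, and other motifs and longer distances were not searched. Stretches of 60 bases are shown 5′ to 3′ on the gene's strand for members whose values are described further on, with the motif in capitals (on the reverse strand, its complement). The first 5 hold the NRF1 motif in complexes I to V, the next 3 the ETS motif and the last the ERR alpha motif. They lie at chr7:115750318-115750377 (minus) for Ndufa6, chr1:30764438-30764497 (plus) for Sdha, chr8:118468158-118468217 (plus) for Uqcrc1, chr6:16936514-16936573 (plus) for Cox7a2l, chr14:1464758-1464817 (plus) for Atp5me, chr1:210573699-210573758 (minus) for Ndufs8, chr5:158547799-158547858 (plus) for Sdhb, chr10:38089979-38090038 (minus) for Uqcrq and chr3:79220688-79220747 (minus) for Atp5mc3.
Ndufa6: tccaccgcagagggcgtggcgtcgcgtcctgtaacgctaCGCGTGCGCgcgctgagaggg
Sdha: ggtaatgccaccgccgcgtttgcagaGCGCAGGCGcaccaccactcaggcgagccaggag
Uqcrc1: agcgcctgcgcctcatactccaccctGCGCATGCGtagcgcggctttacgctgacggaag
Cox7a2l: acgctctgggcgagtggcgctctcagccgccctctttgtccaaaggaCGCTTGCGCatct
Atp5me: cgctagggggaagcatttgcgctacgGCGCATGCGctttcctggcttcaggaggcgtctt
Ndufs8: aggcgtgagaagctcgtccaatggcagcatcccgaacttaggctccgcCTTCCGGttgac
Sdhb: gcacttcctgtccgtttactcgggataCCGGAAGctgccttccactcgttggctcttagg
Uqcrq: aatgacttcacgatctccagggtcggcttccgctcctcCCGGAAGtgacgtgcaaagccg
Atp5mc3: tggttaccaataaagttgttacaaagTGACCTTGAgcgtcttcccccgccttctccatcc

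Together the 66 members took 0.883 to 1.82% of the WT reads of a well, with a median of 1.42% over all wells. Median shares were 0.552% for complex IV, 0.404% for complex V, 0.317% for complex I, 0.082% for complex II and 0.0569% for complex III. These are shares of probe reads, and probes differ in efficiency, so levels of different genes were not compared. In vehicle wells the members took 1.33, 1.35 and 1.36% in batch 1 and 1.38 to 1.47% in batch 2 (median 1.44%). The highest shares were with valproic acid at 10000 µM, 1.77 to 1.82% in batch 1 and 1.78 to 1.81% in batch 2, above every vehicle well. WY14643 at 8 µM followed, with 1.61 to 1.67% and 1.57 to 1.65%, also above every vehicle well. Acetaminophen at 10000 µM was lowest in batch 1, 0.883 to 0.992%, and caffeine at 10000 µM in batch 2, 1.06 to 1.15%, where acetaminophen read 1.17 to 1.21%. All wells of these treatments, and those of diclofenac at 400 µM (1.15 to 1.31% over both batches) and ranitidine at 4000 µM (1.22 to 1.29% in batch 1 and 1.32 to 1.36% in batch 2), were below every vehicle well of their batch. A share of reads moves with the few most abundant probes of a library: without the 10 highest probes the median over all wells was 1.6%.

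**Figure D1:**
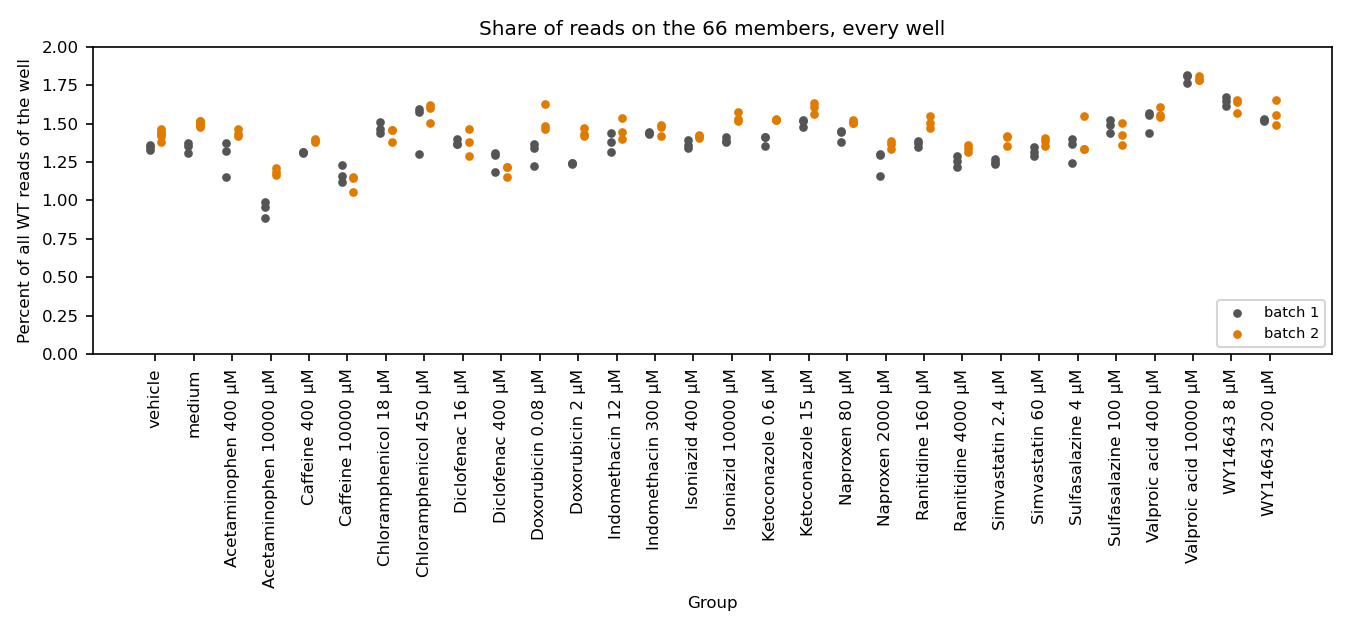
Percent of WT reads taken by the 66 subunits in every well, by treatment and batch (linear axis). Valproic acid at 10000 µM lies highest, at 1.77 to 1.82%, and acetaminophen at 10000 µM in batch 1 lowest, at 0.883 to 0.992%.

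Rises dominated with WY14643. In edgeR's quasi-likelihood test against vehicle (6 treated and 9 vehicle wells, batch as a term, Benjamini-Hochberg adjusted p below 0.05 over all 10689 probes), 48 of 66 members rose and 1 fell with 8 µM, where 27.4% of all probes were higher and 28.6% lower. The median log2 fold change (L2FC) of the members was 0.51, and 0.62 and 0.40 in the 2 batches. With 200 µM, 45 rose and 1 fell, against 25.5 and 25.4% of all probes, and the median was 0.35. The difference between 8 and 200 µM was not tested. Of the 8 hepatocyte markers 1 rose and 1 fell with 8 µM and 3 rose and 2 fell with 200 µM, and of the 4 Kupffer cell and leukocyte markers tested 0 were called with 8 µM, and with 200 µM Cd68 rose and Vsig4 fell. The biliary marker Sox9 rose with both (1.12 and 1.08), and Epcam fell with 200 µM (-0.34). Whether these markers bear on the members was not tested. The one member that fell with both was Atp5if1, the inhibitor of ATP synthase.

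Rises also outnumbered falls with sulfasalazine at 100 µM (31 rose and 2 fell, against 20.8 and 19.9% of all probes), ketoconazole at 15 µM (24 and 3, against 24.9 and 26%) and indomethacin at 300 µM (24 and 1, against 27.4 and 27.2%). In percent of members, the rises came to 47.0, 36.4 and 36.4, and the medians were 0.23, 0.22 and 0.17. With sulfasalazine, batch 1 alone gave 26 rises and 0 falls with a median of 0.36, and batch 2 alone 15 rises and 11 falls with a median of 0.08. Ketoconazole lowered 6 of the 8 hepatocyte markers and raised 1 (median -0.99), and of the 4 Kupffer cell and leukocyte markers tested it lowered 3 and raised Cd68. Indomethacin lowered 3 of these 4 (median -1.76), and of the hepatocyte markers it lowered 3 and raised 2. The biliary marker Spp1 fell with ketoconazole (-1.68) and indomethacin (-1.29), while Epcam rose with ketoconazole (0.32) and fell with indomethacin (-0.99). Sulfasalazine raised 3 hepatocyte markers and lowered none. Their part in the members' values was not tested. Among the low concentrations, 15 members rose and none fell with valproic acid at 400 µM (14.9 and 13.7% of all probes) and with naproxen at 80 µM (8.11 and 7.51%). By DESeq2 15 and 16 rose and again none fell, and at an unadjusted p below 0.05 edgeR gave 25 and 32 rises and 0 falls. With valproic acid 2 hepatocyte markers rose and 2 of the 4 Kupffer cell and leukocyte markers fell, and with naproxen 3 hepatocyte markers and Cd68 (0.91) rose. Without replicate 2 of each batch the members called were 8 and 3, and naproxen gave 9 without replicate 1.

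Falls dominated with 4 of the high concentrations. With diclofenac at 400 µM 43 members fell and 3 rose, where 36% of all probes were lower and 35.6% higher. With acetaminophen at 10000 µM 34 fell and 14 rose (40.1 and 38.6% of all probes), with caffeine at 10000 µM 31 fell and 7 rose (31.6 and 34%), and with ranitidine at 4000 µM 31 fell and 12 rose (33.4 and 32.4%). Median L2FC were -0.38, -0.23, -0.27 and -0.24 in that order, against -0.02 to 0.05 over all probes in each comparison. In batch 1 alone 26 fell and 2 rose with diclofenac and 18 fell and 7 rose with caffeine, and in batch 2 alone 23 fell and 4 rose with ranitidine. Hepatocyte markers moved with these treatments: all 8 fell with diclofenac (median L2FC -2.51, 0.695 to 0.943% of reads) and with ranitidine (-1.71, 1.19 to 1.77%), 4 fell and 3 rose with caffeine (-0.39, 1.63 to 2.25%), Tat among the latter by 3.22, and 4 fell and 1 rose with acetaminophen (-0.50, 2.32 to 3.64%). Of the 4 Kupffer cell and leukocyte markers tested, 3 fell with each of the 4 treatments, with medians from -1.89 to -3.52 and shares of reads of 0.000538 to 0.00325%, against 0.00227 to 0.00435% in vehicle. The remaining one, Cd68, rose with acetaminophen (1.86), diclofenac (0.76) and ranitidine (1.37), and was 0.06 with caffeine. Of the 3 biliary markers tested, all fell with diclofenac (median -2.27), Spp1 fell with caffeine (-1.59), and with ranitidine Sox9 rose (2.73) and Epcam fell (-1.53), while 0 were called with acetaminophen. The part of these lists in the members' values was not tested.

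The remaining high concentrations gave both directions or few calls. Valproic acid at 10000 µM raised 18 and lowered 18, against 33.4 and 32.9% of all probes, and all 8 hepatocyte markers fell there (median -1.45, 1.57 to 2.22% of reads). Naproxen at 2000 µM raised 7 and lowered 16 (27 and 26.2%), and isoniazid at 10000 µM raised 9 and lowered 7 (16.8 and 17.4%). For naproxen, batch 1 alone gave 3 rises and 12 falls, and batch 2 alone 10 rises and 8 falls. Chloramphenicol at 450 µM, an inhibitor of mitochondrial translation, raised 6 and lowered 3 (15.3 and 17.3%). Doxorubicin at 2 µM raised 2 and lowered 2 (9.16 and 9.85%), and simvastatin at 60 µM raised 2 and lowered 1 (11.4 and 11.9%). Hepatocyte markers were lower in 6 of 8 with naproxen (2 higher), 7 with isoniazid, 5 with doxorubicin, 3 with chloramphenicol (1 higher) and 1 with simvastatin (4 higher), and of the 4 Kupffer cell and leukocyte markers 3 fell with doxorubicin (median -5.12), with naproxen and with valproic acid, where Cd68 rose (0.82). One fell with chloramphenicol and with simvastatin, and with isoniazid 1 rose and 1 fell. Of the 3 biliary markers tested, 2 fell with chloramphenicol, 2 fell and 1 rose with naproxen and with simvastatin, 1 fell with doxorubicin, and 1 rose with isoniazid and with valproic acid. The part of these lists in the members' values was not tested. In these 6 treatments the shares of members higher and lower were each below those of all probes. Without replicate 2 of each batch, naproxen at 2000 µM gave 15 calls, and chloramphenicol 4 and doxorubicin 2 without either replicate 1 or replicate 2.

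At the other low concentrations and in medium few members were called. Sulfasalazine at 4 µM raised 4 and lowered 8 (9.07 and 7.99% of all probes), and 2 were called without replicate 2 of each batch and 6 without replicate 3. Medium without DMSO raised 7 and lowered 0 (7.39 and 4.81%) by edgeR and by DESeq2, with 18 higher and 1 lower at an unadjusted p below 0.05, and gave 4 calls without replicate 1 and 2 without replicate 2. Ketoconazole at 0.6 µM raised 3 (Ndufs4, Ndufc1 and Ndufa2) where 1.54% of all probes were called in either direction, and indomethacin at 12 µM raised Ndufc1 (5.65%). At an unadjusted p below 0.05 these 2 gave 19 higher and 0 lower, and 20 higher and 1 lower. With the other 8 low concentrations 0 members were called by edgeR, where the calls over all probes came to 1.25% for acetaminophen at 400 µM, 0.103% for caffeine at 400 µM, 0.0936% for chloramphenicol at 18 µM, 0.15% for diclofenac at 16 µM, 1.24% for doxorubicin at 0.08 µM, 0.0187% for isoniazid at 400 µM, 0.0655% for ranitidine at 160 µM and 2.25% for simvastatin at 2.4 µM. In medium Cd68 rose (0.58) and Vsig4 fell (-0.78), with sulfasalazine at 4 µM 2 hepatocyte markers rose and 1 biliary marker fell, and with simvastatin at 2.4 µM 2 hepatocyte markers, 3 of the 4 Kupffer cell and leukocyte markers and Spp1 (-2.59) fell. Ketoconazole at 0.6 µM raised 1 hepatocyte marker and Cd68 (0.81), and indomethacin at 12 µM raised 2 hepatocyte markers. At the 8 low concentrations without a call by edgeR, DESeq2 called 2 members, both lower with simvastatin at 2.4 µM. At an unadjusted p below 0.05, edgeR gave 8 higher with chloramphenicol at 18 µM, 1 higher and 10 lower with simvastatin, and 0 to 2 with each of the others.

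**Figure D2:**
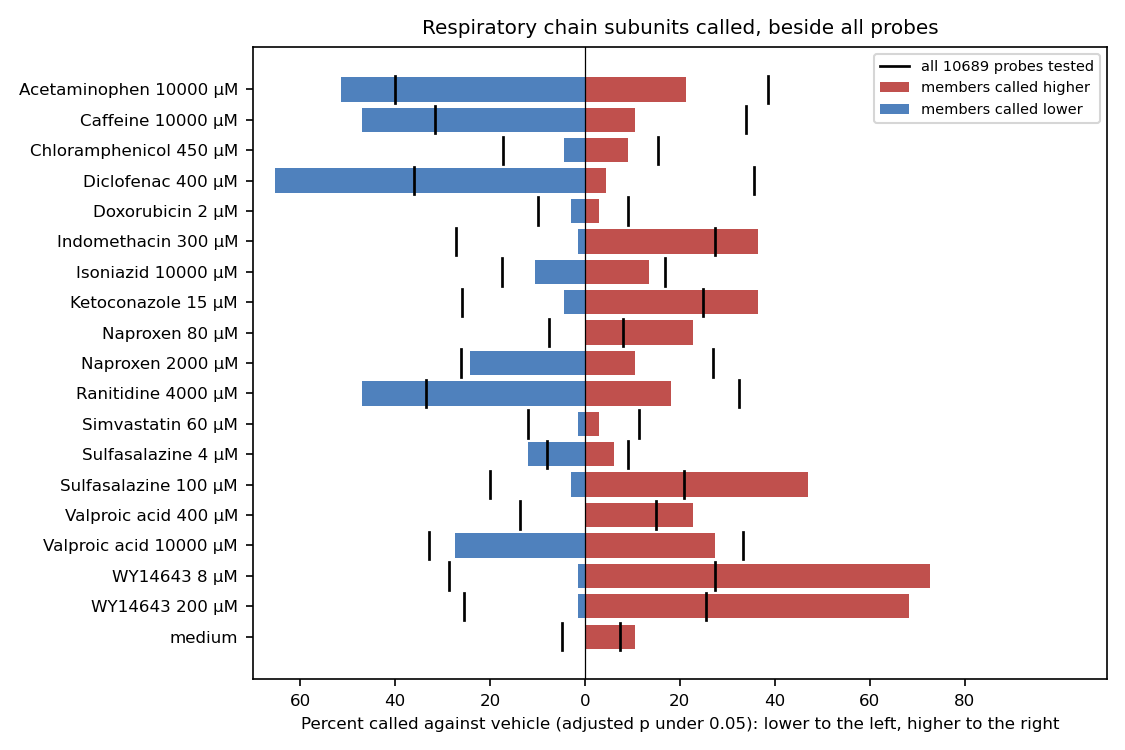
Percent of the 66 members higher (right) and lower (left) than vehicle in each comparison, with ticks for the percent of all 10689 probes. WY14643 had the largest shares higher (72.7% at 8 µM) and diclofenac at 400 µM the largest share lower (65.2%).

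**Figure D3:**
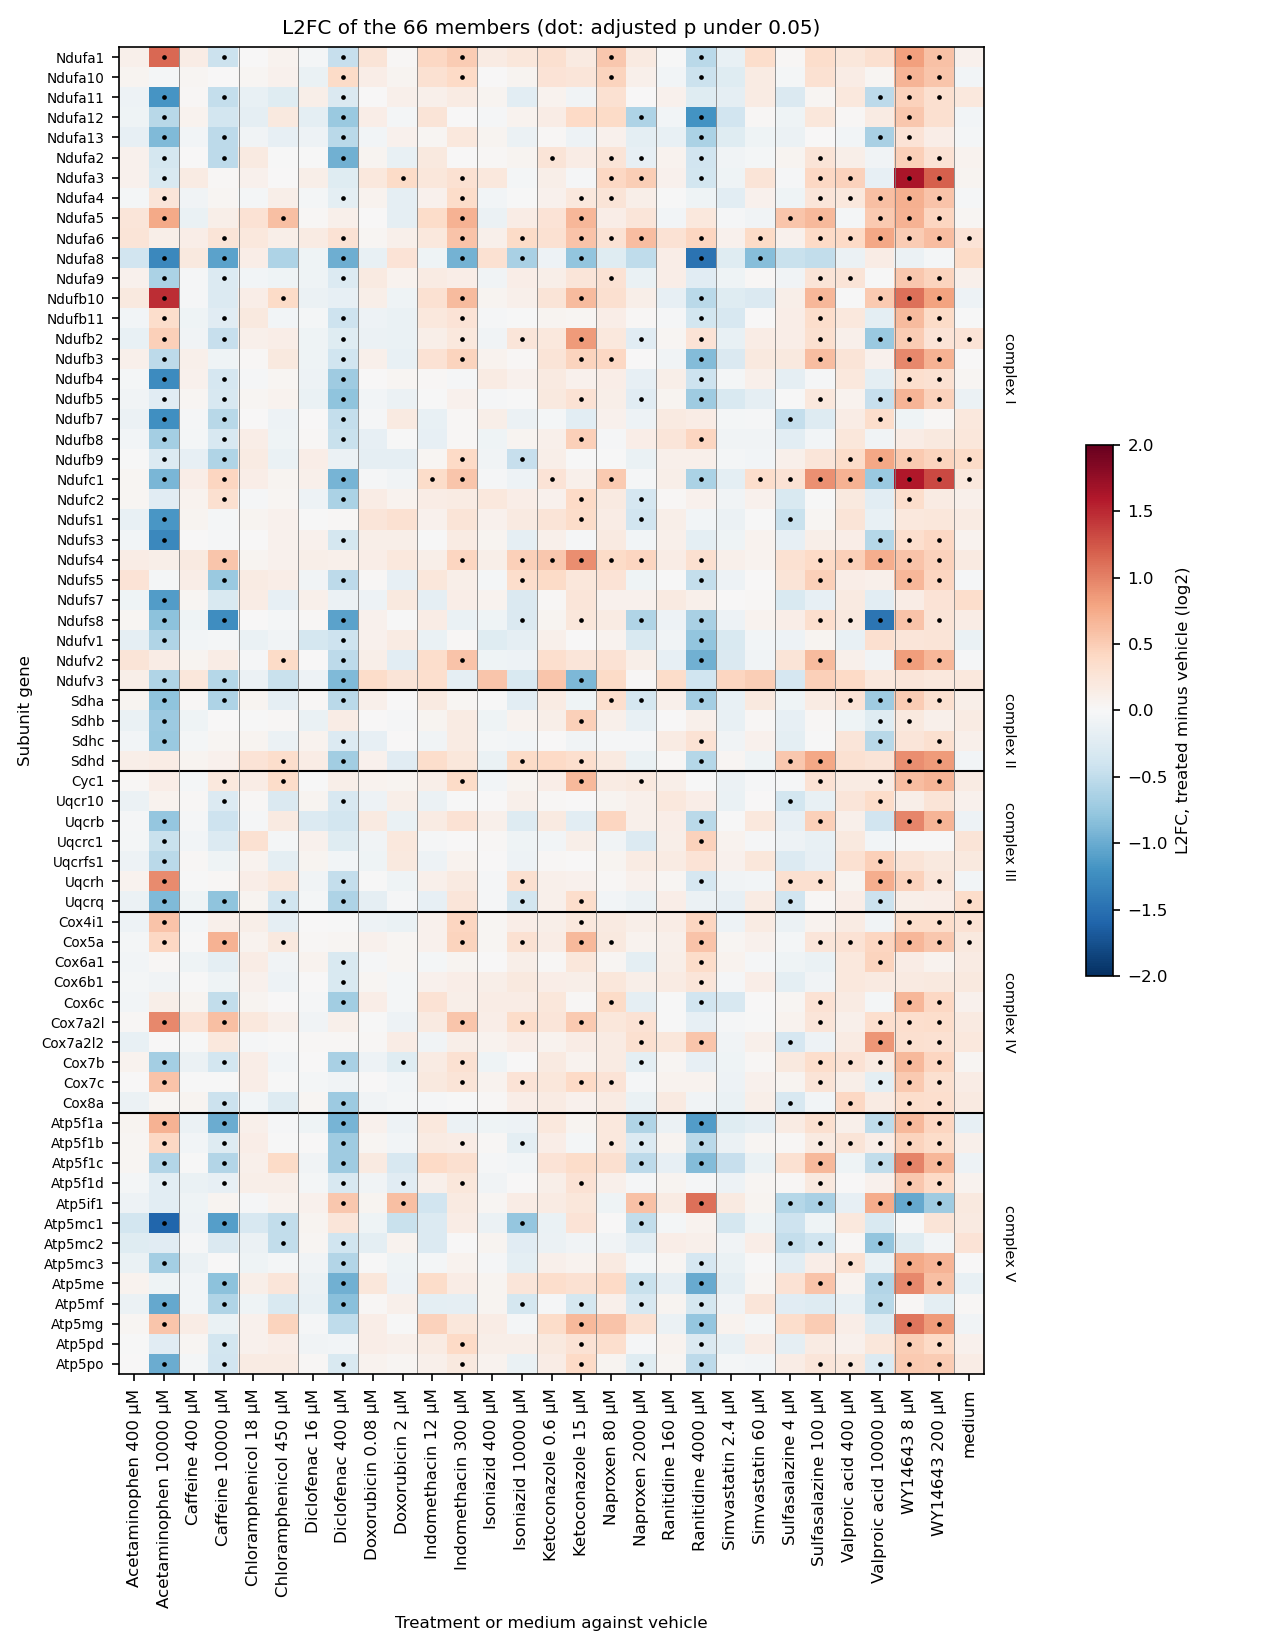
L2FC of each member (rows, by complex) against vehicle in the comparisons (columns), with dots for calls at an adjusted p below 0.05. The color scale ends at 2 in both directions, and most rows are positive with WY14643 and negative with diclofenac at 400 µM.

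Complex I holds a catalytic core, of which 6 nuclear encoded subunits were measured: Ndufv1 and Ndufv2, which take electrons from NADH, Ndufs1, which carries iron-sulfur clusters, and Ndufs3, Ndufs7 and Ndufs8, on the way to ubiquinone. Of these, 5 fell with acetaminophen at 10000 µM, where 40.1% of all probes were lower. Ndufs3 read 121, 115 and 103 in batch 1 and 99.6 to 124 (median 115) in batch 2 normalized CPM (counts scaled to a common library size) in vehicle and 26.3, 46.3 and 42.1 (batch 1) and 57.6, 58.8 and 44.7 (batch 2) with acetaminophen (L2FC -1.28 ± 0.10 SE, adjusted p = 3.36e-24). All treated wells lay below all vehicle wells of their batch. Ndufs1 fell by 1.16, Ndufs7 by 1.11, Ndufs8 by 0.82 and Ndufv1 by 0.61 on the log2 scale, whereas Ndufv2 differed by 0.14 and did not pass the test (adjusted p = 0.317).

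Ndufs8 was called in 12 of the 28 treatments, more than any other core subunit. It read 255, 239 and 252 in batch 1 and 193 to 222 (median 199) in batch 2 in vehicle. With valproic acid at 10000 µM the wells read 97.7, 105 and 114 (batch 1) and 62.5, 62.4 and 65 (batch 2) (L2FC -1.47 ± 0.07 SE, adjusted p = 1.02e-42). It fell also with caffeine at 10000 µM, where the wells read 135, 125 and 139 (batch 1) and 61.2, 68.8 and 69.2 (batch 2) (L2FC -1.25), and with diclofenac at 400 µM, where they read 126, 144 and 148 (batch 1) and 74.7, 89 and 86.5 (batch 2) (L2FC -1.07). All these wells lay below vehicle in both batches, those of batch 2 farther (the L2FC of batch 2 minus that of batch 1 was -0.45 for valproic acid and diclofenac and -0.71 for caffeine, and each passed the test of that difference), and its promoter is one of those shown above with an ETS motif. The other falls were with acetaminophen, ranitidine at 4000 µM (-0.65), naproxen at 2000 µM (-0.59) and isoniazid at 10000 µM (-0.29). With WY14643 at 8 µM it read 377, 411 and 397 (batch 1) and 279, 288 and 308 (batch 2), above vehicle in both batches (L2FC 0.58).

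The NADH side of the core differed among treatments. Ndufv2 rose with WY14643 at 8 µM (L2FC 0.84, adjusted p = 5.41e-09) and at 200 µM (0.66), and fell with ranitidine at 4000 µM (-0.96, adjusted p = 2.82e-10). Ndufv1 was -0.79 with ranitidine and was called in 3 treatments, all lower. Ndufs7 was called in acetaminophen alone among the 28 treatments, and its L2FC with WY14643 at 8 µM was 0.15 (adjusted p = 0.396).

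Of all members, the widest range over the 28 treatments was that of Ndufc1, an accessory subunit of the membrane arm, 2.54 on the log2 scale. It read 311, 354 and 286 in batch 1 and 262 to 318 (median 276) in batch 2 in vehicle. With WY14643 at 8 µM the wells read 888, 1086 and 961 (batch 1) and 715, 850.4 and 906 (batch 2) (L2FC 1.60 ± 0.08 SE, adjusted p = 1.07e-45), and with 200 µM 781, 735 and 743 (batch 1) and 688, 804 and 711 (batch 2) (1.33). No treated well overlapped with vehicle. With sulfasalazine at 100 µM the wells read 666, 612 and 557 (batch 1) and 530, 489 and 517 (batch 2) (0.92), above vehicle too. Falls reached -0.94 with diclofenac at 400 µM, -0.91 with acetaminophen and -0.75 with valproic acid at 10000 µM, where the wells read 193, 219 and 224 (batch 1) and 126, 148 and 157 (batch 2), below vehicle in both batches. At 400 µM valproic acid raised it by 0.70.

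Among the other accessory subunits, Ndufa3, of the membrane arm, had the highest L2FC of any member. It read 24.3, 27 and 24.2 in batch 1 and 25.7 to 36.7 (median 30.9) in batch 2 in vehicle and 81.2, 108 and 77.3 (batch 1) and 73.2, 92.5 and 78.6 (batch 2) with WY14643 at 8 µM (L2FC 1.64 ± 0.12 SE, adjusted p = 5.02e-27), without overlap. Ndufb10, also of the membrane arm, rose while most of complex I fell with acetaminophen: it read 63.6, 51 and 52.1 in batch 1 and 48.2 to 64.9 (median 51.1) in batch 2 in vehicle and 116, 195 and 126 (batch 1) and 145, 138 and 179.8 (batch 2) with 10000 µM (L2FC 1.48 ± 0.13 SE, adjusted p = 8.86e-23). All 6 treated wells exceeded all vehicle wells. Ndufa1 rose there as well (1.14), and Ndufb4 (-1.26), Ndufb7 (-1.22) and Ndufa11 (-1.18) fell.

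Ndufs4, an accessory subunit near the NADH module, was the most raised of the members called with ketoconazole at 15 µM. It read 252, 269 and 264 in batch 1 and 165 to 223 (median 194) in batch 2 in vehicle and 496, 473 and 406 (batch 1) and 384, 428 and 354 (batch 2) with ketoconazole, above vehicle in both batches (L2FC 0.93 ± 0.12 SE, adjusted p = 5.06e-12). It rose also with valproic acid at 10000 µM (0.72) and isoniazid at 10000 µM (0.47). Ndufa5, beside the ubiquinone end of the core, was, among the members that passed the test, the most raised by indomethacin at 300 µM (0.70), chloramphenicol at 450 µM (0.60) and sulfasalazine at 4 µM (0.56). By the same measure Ndufa6 was the most raised by naproxen at 2000 µM (0.62) and simvastatin at 60 µM (0.39), Ndufa1 by naproxen at 80 µM (0.54) and Ndufb9 in medium (0.38). Ndufa12 was the most lowered, also among those that passed, by naproxen at 2000 µM (-0.61) and fell with ranitidine (-1.20). The largest falls with ranitidine (-1.47), indomethacin (-0.94) and simvastatin (-0.85) were of Ndufa8, whose probe had the lowest mean count of the members, 11.6 reads a well.

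Over complex I as a whole, 25 of 32 members rose with WY14643 at 8 µM (27.4% of all probes) and 22 at 200 µM (25.5%). Falls numbered 23 with diclofenac (36% of all probes), 20 with acetaminophen (40.1%), 17 with ranitidine (33.4%) and 16 with caffeine (31.6%). In that order rises were 2, 6, 4 and 4 (35.6, 38.6, 32.4 and 34% of all probes), and the median L2FC were -0.41, -0.43, -0.37 and -0.29. Valproic acid at 10000 µM raised 7 and lowered 7 (33.4 and 32.9%).

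Complex II, succinate dehydrogenase, consists of the flavoprotein Sdha, the iron-sulfur protein Sdhb and the membrane anchors Sdhc and Sdhd. Sdha fell with acetaminophen at 10000 µM from 113, 108 and 90.8 in batch 1 and 97.3 to 136 (median 119) in batch 2 to 39.6, 85.4 and 58.2 (batch 1) and 60.9, 79 and 54.4 (batch 2) (L2FC -0.81 ± 0.11 SE, adjusted p = 5.05e-12), with all treated wells below vehicle. Sdhc (-0.74) and Sdhb (-0.73) fell too, and Sdhd differed by 0.14 (adjusted p = 0.343). Complex II took 0.0282 to 0.0442% of reads there, against 0.0759 to 0.0895% in vehicle. Sdha was lower in 6 treatments in all, among them valproic acid at 10000 µM (-0.70) and ranitidine (-0.68), and higher in 4, among them WY14643 at 8 µM (0.51). Sdhd rose most with WY14643 at 8 µM (0.94 ± 0.13 SE, adjusted p = 3.79e-10), where it read 28, 31.7 and 40.2 (batch 1) and 51.2, 39.3 and 38.4 (batch 2) against 16.2, 16.1 and 21.2 in batch 1 and 15.7 to 27.7 (median 20.4) in batch 2 in vehicle. No treated well overlapped with vehicle. Sdhb rose with ketoconazole (0.48, adjusted p = 4.79e-07).

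In complex III, Cyc1 is the heme protein that hands electrons to cytochrome c. It read 71, 71.5 and 70.2 in batch 1 and 67.6 to 77.8 (median 70.6) in batch 2 in vehicle and 112, 126 and 112 (batch 1) and 123, 109.9 and 102 (batch 2) with WY14643 at 200 µM (L2FC 0.69 ± 0.07 SE, adjusted p = 3.29e-15), without overlap. It rose in 9 of the 28 treatments, ketoconazole at 15 µM (0.64) included, and was not called lower in any. The hinge protein Uqcrh and the small subunit Uqcrq parted with acetaminophen at 10000 µM, at 0.95 (adjusted p = 8.94e-20) and -0.89 (adjusted p = 8.23e-11). Uqcrq fell also with caffeine (-0.81) and diclofenac (-0.62). Uqcrb, a subunit of the ubiquinone site, ran from -0.77 with acetaminophen to 0.97 with WY14643 at 8 µM. The core protein Uqcrc1 was called in 2 treatments, lower with acetaminophen (-0.45) and higher with ranitidine (0.46), and the Rieske protein Uqcrfs1 likewise in 2, lower with acetaminophen (-0.53) and higher with valproic acid at 10000 µM (0.48).

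Complex IV is cytochrome c oxidase. With acetaminophen 4 of its 10 members rose and 1 fell (median L2FC 0.08), where 38.6% of all probes were higher and 40.1% lower, and with ranitidine 5 rose and 1 fell (0.16), where 32.4% were higher and 33.4% lower. The 13 members of complex V had 3 rises and 6 falls, and 1 and 9. The difference between complexes was not tested. Cox5a, which with Cox4i1 belongs to the first subunits to assemble, rose in 13 of the 28 treatments and was not called lower in any. It read 323, 312 and 326 in batch 1 and 314 to 338 (median 318) in batch 2 in vehicle. With caffeine at 10000 µM the wells read 512, 473 and 627 (batch 1) and 451, 494 and 536 (batch 2) (L2FC 0.69 ± 0.06 SE, adjusted p = 1.41e-19), with ketoconazole at 15 µM 456, 497 and 457 (batch 1) and 553, 518 and 541 (batch 2) (0.65) and with WY14643 at 8 µM 538, 528 and 519 (batch 1) and 514, 441 and 511 (batch 2) (0.67). All these wells exceeded all vehicle wells of their batch. In medium without DMSO Cox5a differed by 0.19 and Cox4i1 by 0.28, and both passed the test. Cox4i1 rose most with acetaminophen (0.56).

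Cox7a2l, a scaffold that joins complexes III and IV into supercomplexes, rose in 10 treatments, most with acetaminophen (0.97) and caffeine (0.60). A second probe named Cox7a2l2 read 416, 479.9 and 351 in batch 1 and 363 to 487 (median 439.7) in batch 2 in vehicle and 619, 777 and 785 (batch 1) and 979, 759 and 752 (batch 2) with valproic acid at 10000 µM (L2FC 0.89, adjusted p = 2.20e-12), without overlap, and as its name is that of a related copy its target is uncertain. Cox6c, a small subunit, ran from -0.69 with diclofenac to 0.66 with WY14643 at 8 µM, and Cox7b from -0.68 with acetaminophen to 0.65 with WY14643 at 8 µM. Of the 2 members that fell with doxorubicin at 2 µM, Cox7b was the lower (-0.24). Ndufa4, counted here by name with complex I but known as a subunit of complex IV, rose with WY14643 at 8 µM (0.72) and valproic acid at 10000 µM (0.60).

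**Figure D4:**
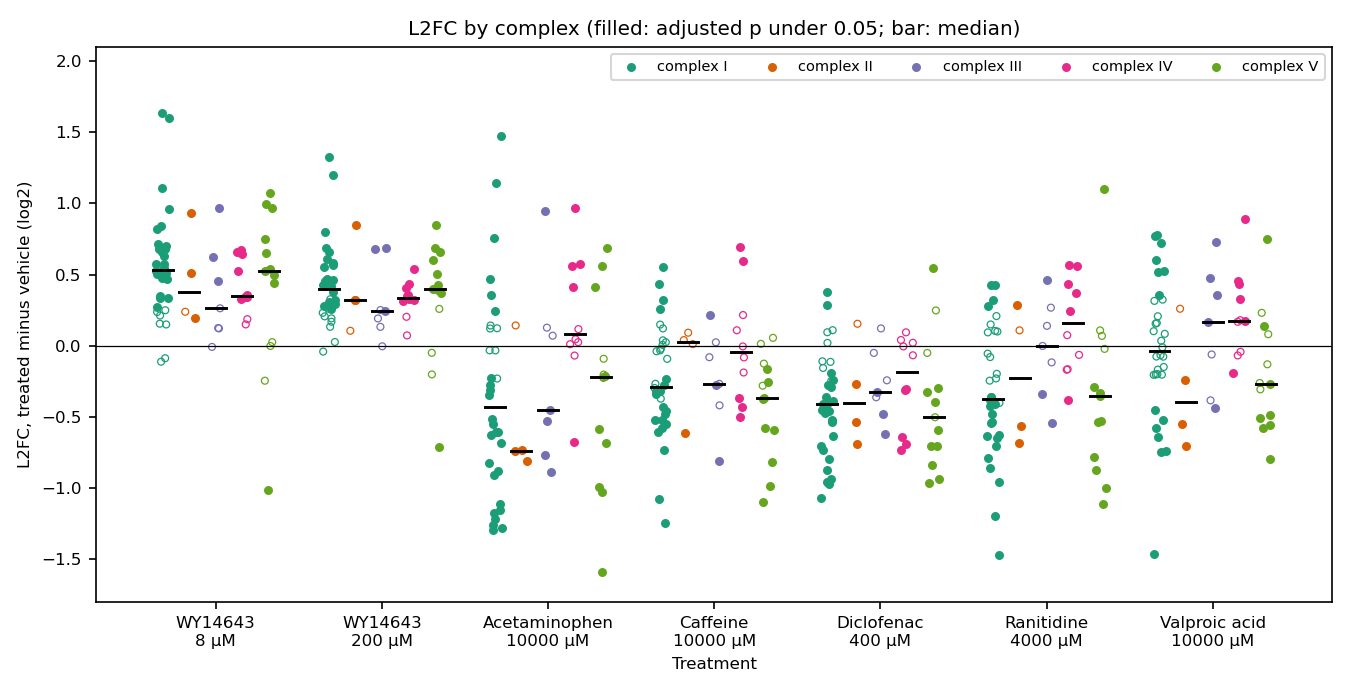
L2FC of the members by complex in the comparisons shown, 1 point a member and a line at the median. With acetaminophen at 10000 µM the median of complex II was -0.74 and that of complex IV 0.08, and with WY14643 at 8 µM the medians lay between 0.26 (complex III) and 0.53 (complexes I and V).

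In complex V, Atp5f1a and Atp5f1b form the catalytic head and Atp5f1c the central stalk. Atp5f1a read 745, 657 and 739 in batch 1 and 572 to 709 (median 639) in batch 2 in vehicle. It fell with ranitidine at 4000 µM, where the wells read 353, 251 and 349.8 (batch 1) and 291, 363 and 253 (batch 2) (L2FC -1.11 ± 0.09 SE, adjusted p = 1.18e-23), with caffeine at 10000 µM, where they read 469, 402 and 469 (batch 1) and 233, 271 and 227 (batch 2) (-0.99), and with diclofenac at 400 µM, where they read 353, 397 and 408 (batch 1) and 318, 320.2 and 323 (batch 2) (-0.93). All were below vehicle in their batch. With acetaminophen at 10000 µM it read 920, 1023 and 1006 (batch 1) and 1150, 975 and 1370 (batch 2), above vehicle in both batches (L2FC 0.69, adjusted p = 7.65e-13). Atp5f1b rose with acetaminophen as well (0.41), whereas Atp5f1c fell (-0.59).

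The proton channel of complex V is a ring of identical subunits encoded by Atp5mc1, Atp5mc2 and Atp5mc3. Atp5mc1 had the largest fall of any member, with acetaminophen at 10000 µM: it read 9.62, 11.4 and 7.57 in batch 1 and 6.16 to 9.36 (median 7.22) in batch 2 in vehicle and 1.05, 2.07 and 2.91 (batch 1) and 3.63, 3.66 and 2.22 (batch 2) with the drug (L2FC -1.59 ± 0.22 SE, adjusted p = 2.32e-11), below vehicle in both batches. Among the members that passed the test, Atp5mc1 was also the most lowered by isoniazid at 10000 µM (-0.78), and Atp5mc2 by chloramphenicol at 450 µM (-0.49). Atp5mc3, the gene shown above with an ERR alpha motif, rose with WY14643 at 8 µM (0.75) and 200 µM (0.69). Atp5me, a membrane subunit, fell by 1.00 on the log2 scale with ranitidine and rose by 0.97 with WY14643 at 8 µM, and Atp5f1c from -0.87 to 1.00 with the same treatments.

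Atp5if1, which blocks ATP hydrolysis by the synthase and is not a stable subunit, was called in both directions. It read 11.5, 11.4 and 11.1 in batch 1 and 9.34 to 18 (median 15.3) in batch 2 in vehicle and 6.71, 5.8 and 9.81 (batch 1) and 5.19, 4.48 and 7.35 (batch 2) with WY14643 at 8 µM (L2FC -1.02 ± 0.18 SE, adjusted p = 6.77e-07), below vehicle in both batches. With ranitidine at 4000 µM it read 22.2, 22 and 26.4 (batch 1) and 35.2, 25.3 and 38.1 (batch 2), above vehicle (L2FC 1.10, adjusted p = 1.97e-10). It fell also with WY14643 at 200 µM (-0.71) and with sulfasalazine at 4 µM (-0.57) and 100 µM (-0.65). It rose with valproic acid at 10000 µM (0.75), doxorubicin at 2 µM (0.61), naproxen at 2000 µM (0.59) and diclofenac at 400 µM (0.55). With caffeine at 10000 µM (0.055, adjusted p = 0.784) and acetaminophen at 10000 µM (-0.20, adjusted p = 0.27) it did not pass the test.

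**Figure D5:**
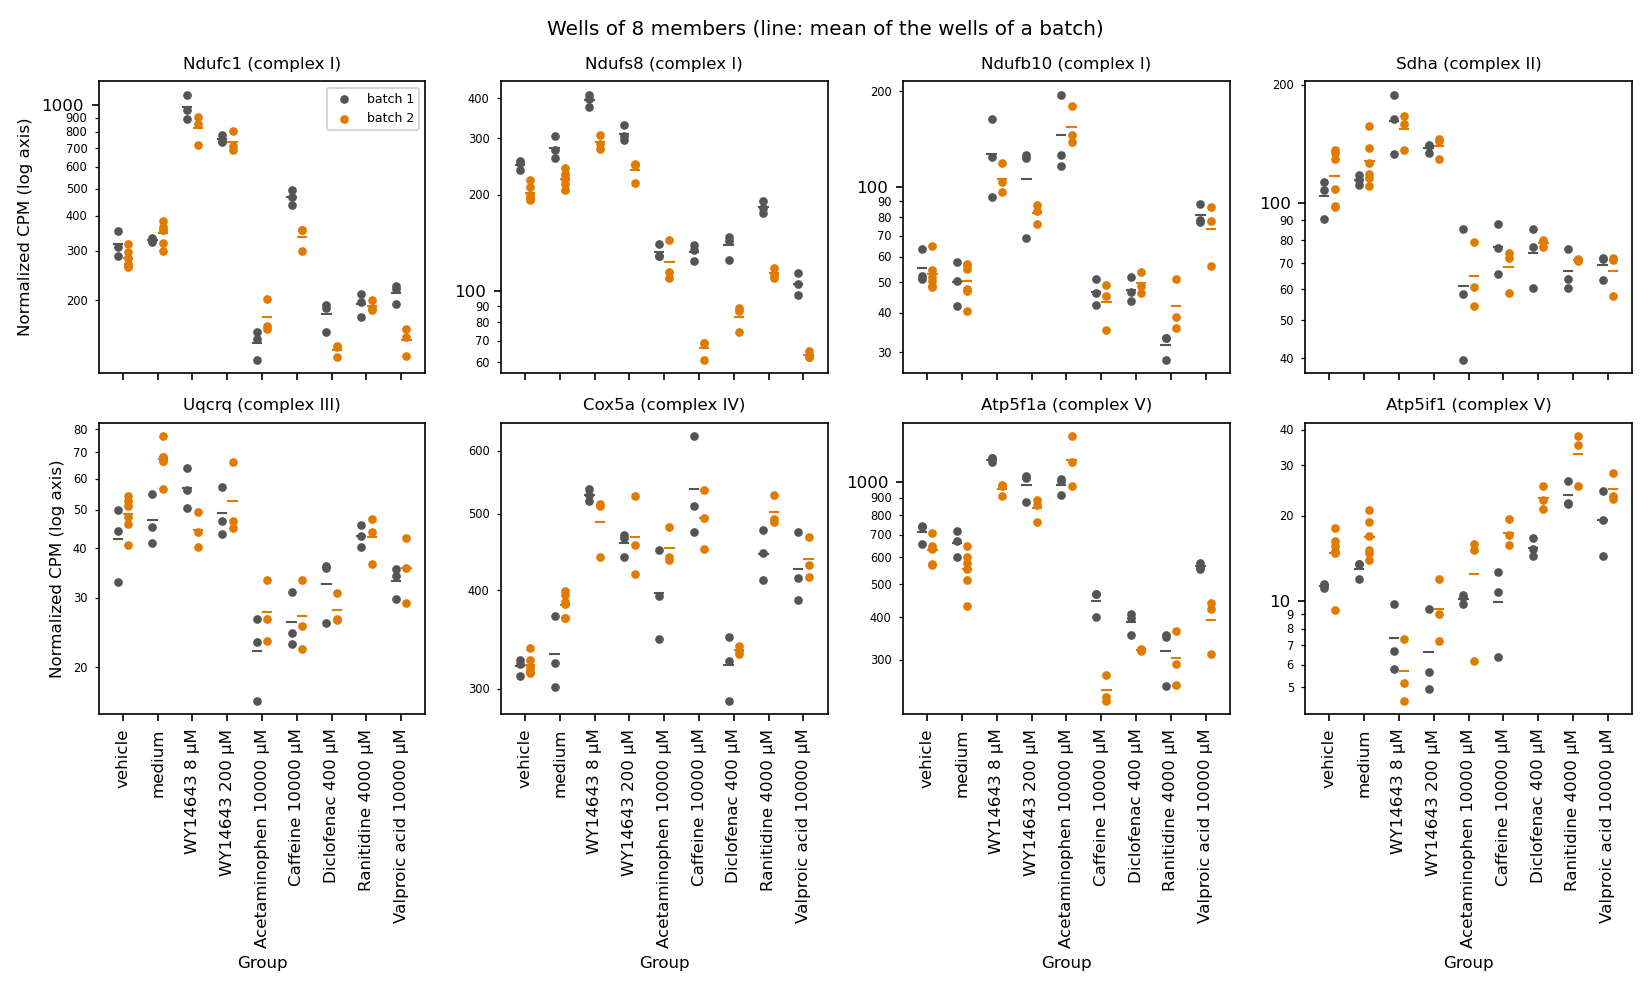
Normalized CPM (log axis) in every well of vehicle, medium and the treatments shown, for Ndufc1, Ndufs8, Ndufb10, Sdha, Uqcrq, Cox5a, Atp5f1a and Atp5if1, by batch. Ndufc1 with WY14643 at 8 µM reads 715 to 1086 against 262 to 354 in vehicle, and Ndufs8 with valproic acid at 10000 µM 62.4 to 114 against 193 to 255.

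Among the 43 members with a promoter window that rose with WY14643 at 8 µM, 14 (32.6%) held the NRF1 motif, against 3 of the 16 (18.8%) that did not rise. The ETS motif stood in 13 (30.2%) and 3 (18.8%), the YY1 motif in 4 (9.3%) and 4 (25%), and the ERR alpha motif in 2 (4.65%) and 0. These are counts of letters in windows and were not tested.

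The 16 probes under the mean count of 10 were Ndufa10l1, Ndufa4l2, Ndufa7, Ndufab1, Ndufb6, 1 of the 2 probes of Ndufs5, Uqcrc2, Cox4i2, Cox5b, Cox6a2, Cox6b2, Cox7a1, Cox7b2, Cox8b, Cox8c and Atp5s. They were not tested, and no statement on their genes follows from a low probe count. Several are isoforms known from other tissues. Cox7a1, the isoform of heart and skeletal muscle, had 12, 29 and 31 reads in batch 1 and 15, 17 and 30 in batch 2 with acetaminophen at 10000 µM, against 0 to 3 reads in each of the 9 vehicle wells. Cox6b2, the testis isoform, had 9, 32 and 45, and 8, 13 and 24, with valproic acid at 10000 µM, against 0 to 3 in vehicle. Cox6a2, also of heart and muscle, reached a mean of 15 reads (2 to 33) with ranitidine at 4000 µM, against 0 to 7 in vehicle. Ndufa4l2 and Cox4i2, isoforms known to rise in low oxygen, had their highest means in medium wells, 18.6 and 17.6 reads, against 12.8 (5 to 19) and 10.1 (7 to 17) in vehicle, and the wells of medium (9 to 31 and 4 to 30) and vehicle overlapped. Cox5b, the partner of Cox5a, averaged 8.28 reads over all wells and at most 14.7, with WY14643 at 8 µM. Atp5s, a factor of ATP synthase that is not a stable subunit, averaged 20.2 reads with valproic acid at 10000 µM and 6.73 over all wells. Muscle markers Ckm, Myh7, Myl2 and Tnnt2 were at or near 0 in the same data, at most 0.000171% of reads in any well. Symbols for Cycs, Atp5sl and Cox7a2 itself were not among the probes analysed here.

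A smaller assay of the same lysates, the rat surrogate TempO-Seq assay (ST, 2654 probes), held probes for 5 of the members with enough reads. Of these, 4 (Ndufb8, Sdha, Sdhb and Atp5f1c) carried the same probe number, Atp5f1c under another symbol. Sdha with acetaminophen at 10000 µM differed by -0.60 (adjusted p = 2.86e-07) in ST and -0.81 in WT, and Sdhb by -0.64 and -0.73. Sdhb with ketoconazole at 15 µM differed by 0.51 and 0.48. Over the 116 pairs of these 4 probes and a comparison, 22 were called in both assays with the same sign and 0 with opposite signs, 7 in ST only and 6 in WT only. Those in ST only included Sdhb with diclofenac at 400 µM (0.39 in ST and 0.15 in WT) and with simvastatin at 60 µM (-0.22 and 0.02). Ndufb8 with acetaminophen was -0.29 in ST and -0.69 in WT, and Atp5f1c with WY14643 at 8 µM 0.70 and 1.00. Sdha with WY14643 at 200 µM was 0.17 (adjusted p = 0.167) in ST and 0.32 (adjusted p = 0.00423) in WT. For Ndufv3, an accessory subunit near the NADH site, the assays used different probes. Signs were opposite with some treatments: with ketoconazole 0.20 (adjusted p = 0.0222) in ST and -0.90 (adjusted p = 0.00148) in WT, and with diclofenac at 400 µM 0.40 (adjusted p = 2.89e-06) and -0.88 (adjusted p = 0.00101). They were the same with others, such as valproic acid at 10000 µM (0.58 in ST and 0.21 in WT) and WY14643 at 200 µM (0.48 and 0.21), where the WT values did not pass the test. The WT probe of Ndufv3 had a mean of 15.3 reads a well, and its WT falls are therefore given as values of that probe only.

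Other nuclear genes of mitochondria were read from 7 lists. For these counts, the shares of all probes higher and lower were 27.4 and 28.6% with WY14643 at 8 µM, 25.5 and 25.4% at 200 µM, 27.4 and 27.2% with indomethacin, 35.6 and 36% with diclofenac, 38.6 and 40.1% with acetaminophen and 32.4 and 33.4% with ranitidine. The complex I assembly factors, of which 14 probes were tested, gave 10 rises with indomethacin at 300 µM (median L2FC 0.55) and 7 with WY14643 at 200 µM (0.38), and 7 rises and 1 fall with diclofenac (0.26), where 23 complex I subunits fell. With acetaminophen 3 rose and 7 fell (-0.36). Ndufaf3, an assembly factor of the ubiquinone module, fell there (-1.31) and Ndufaf2, a chaperone of a late step, rose (1.41). Of 25 probes for assembly factors of complexes II to V, 13 rose and 3 fell with WY14643 at 8 µM (0.22), Sdhaf1, of complex II, by 1.62, and 8 rose and 13 fell with acetaminophen (-0.38).

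Of 11 probes of the tricarboxylic acid cycle, which feeds NADH and succinate to the chain, 6 rose with WY14643 at 8 µM (median 0.47), and 3 rose and 7 fell with ranitidine (-0.27). Of 11 probes for mitochondrial chaperones and proteases, 8 rose and 1 fell with WY14643 at 8 µM (0.63), among them Hspd1, the chaperonin, by 1.69, and 3 rose and 6 fell with acetaminophen (-0.49). Of 13 probes for the expression and upkeep of mitochondrial DNA, 8 rose with diclofenac (0.56), and 7 rose and 2 fell with WY14643 at 8 µM (0.35), Tfam, which packages that DNA, by 0.54. Of 8 probes for carriers and porins, 4 rose with WY14643 at 8 µM, and the uncoupling protein gene Ucp2 rose by 3.96 there and fell with acetaminophen (-1.55).

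Of 10 probes for regulators of respiratory genes, 3 rose and 1 fell with WY14643 at 8 µM. The coactivator Ppargc1b rose by 1.20, the receptor Esrrg by 2.37 and Ppara by 0.80, and the coactivator Pprc1 was lower (-0.81). Counts were low for Ppargc1b (mean 11.07, near the minimum) and Esrrg (18.05). The related coactivator Ppargc1a (5.61) was under the minimum and not tested. With acetaminophen 5 rose and 3 fell. Nrf1, whose product binds the motif searched above, rose by 1.80 and 1.60 by its 2 probes, and Gabpb1, a subunit of GABP, by 1.38, whereas Ppara was lower (-3.27, adjusted p = 2.68e-23). The lists and the regulators were described side by side with the subunits and no relation between them was tested.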

How the data were processed

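The authors deposited raw read counts per probe for every well in both assays, without normalization. Per the submitters' processing notes, reads were aligned with STAR (2.5.3a) and rn6 is the genome build, and the study's methods state that 2 mismatches were allowed. Probes with a mean count of at least 10 over all wells were kept (10689 of 22253 WT probes), library sizes were scaled by TMM, and all wells were fitted together in edgeR (4.0.16, R 4.3.3) by the quasi-likelihood test with treatment and batch as terms. Treated wells were compared with vehicle, and p-values were adjusted by Benjamini-Hochberg over all probes of a comparison, with a threshold of 0.05. Differences between batches came from a fit with an interaction term. L2FC are the fitted coefficients, and normalized CPM are counts over TMM-scaled library sizes. The spread covers wells. With simulated counts for diclofenac at 400 µM, 98% of probes changed 2-fold and 63% of those changed 1.5-fold were recovered among 10689. The simulation used the same dispersion for every probe, no batch effect and few changed probes. In the measured comparison 35.6% of probes were higher and 36% lower. The percentages recovered therefore do not give the power in the measured data. Alternatives were DESeq2 (1.42.0), its size factors, no count minimum, each batch alone, vehicle of the same plate in batch 2, a fit of a comparison's own wells, summed probes of a symbol, the ST assay and leaving out each replicate. In batch 1 vehicle stood on plate 4 only, so treatments of plate 5 were still compared with it there. Members named in the text are the catalytic and isoform subunits listed by function, those with the widest ranges in each complex, and those with the largest rise and fall in each comparison. Choice by range or by rise and fall was limited to members called with the same sign in both batches (for ranges, in some treatment). Other members given beside them (such as Ndufb4, Ndufb7 and Ndufa11 with acetaminophen) and the genes named from the 7 lists were chosen after their values were seen. Replicate numbers were given in accession order, as the labels give wells only plate positions. No 2 wells had identical counts. The members and lists were chosen with earlier results of these data known.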

Additional observations from a re-analysis of the deposited data

Results flagged for a closer look

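In a fit with an interaction term, 32 of 1914 pairs of a member and a comparison (1.67%) gave a different L2FC in the 2 batches, that is in the cells of the 2 rats, at an adjusted p below 0.05, against 2.23% of the pairs of all probes. They concerned 18 members and 7 comparisons. Values are the L2FC of batch 2 minus that of batch 1, so negative values mean a lower L2FC in batch 2. With caffeine at 10000 µM (8.49% of all probes) the differences were -1.01 for Sdhd, -0.98 for Ndufa5, -0.71 for Ndufs8, -0.70 for Atp5f1a, -0.68 for Cox7b, -0.55 for Atp5f1d, -0.47 for Ndufb2, -0.46 for Ndufa2 and -0.37 for Atp5po. With diclofenac at 400 µM (9.8%) they were -0.93 for Ndufa5, -0.90 for Ndufs5, -0.78 for Ndufb8, -0.71 for Cox7b, -0.62 for Ndufa6, -0.59 for Ndufb2, -0.45 for Ndufs8, -0.44 for Atp5f1d and -0.34 for Atp5po. With valproic acid at 10000 µM (8.06%) they were -0.77 for Ndufb2, -0.45 for Ndufs8, -0.42 for Cox7b, -0.40 for Ndufc1 and -0.39 for Atp5f1d. With ranitidine at 4000 µM (12.5%) they were -0.66 for Sdhc, -0.45 for Ndufb2 and -0.40 for Ndufs8. With sulfasalazine at 100 µM (2.56%) they were -0.76 for Cox8a and -0.65 for Atp5mc3. The 4 positive differences were 0.53 for Ndufa4, 0.47 for Ndufc1 and 0.42 for Atp5f1d with acetaminophen at 10000 µM (5.97%), and 1.03 for Atp5mc1 with ketoconazole at 15 µM (3.09%). Batch, rat, library preparation and plate cannot be told apart.

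Of 102 groups of 6 wells checked for a well far from the others, 3 held one, where chance gives about 5.1. In batch 2, Ndufa5 read 50.8 and Uqcrc1 135.5 normalized CPM in 1 vehicle well each, and Ndufs4 read 170 in 1 medium well.

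Of the probes under the mean count, 3 stood above every vehicle well in all 6 wells of a treatment. With valproic acid at 10000 µM, Ndufb6 had 10 to 23 reads against 0 to 8 in vehicle, and Cox6b2 had 8 to 45 against 0 to 3. With acetaminophen at 10000 µM, Cox7a1 had 12 to 31 reads against 0 to 3. Their part in the mitochondria of these cells was not measured.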

How the results depend on the processing

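No paired analysis was possible because the labels give wells no replicate numbers, and batch was a term of every joint fit. Counts of called members moved by over 1.5 times as follows. With batch 1 alone they were 25 (caffeine), 2 (chloramphenicol, 450 µM), 28 (diclofenac), 0 (doxorubicin, 2 µM), 8 (isoniazid, 10000 µM), 16 (ketoconazole, 15 µM), 15 (naproxen, 2000 µM), 6 (valproic acid, 400 µM), 3 (sulfasalazine, 4 µM) and 0 (medium). With batch 2 alone they were 14 (indomethacin, 300 µM), 9 (isoniazid), 27 (ranitidine), 1 (simvastatin, 60 µM), 4 (naproxen, 80 µM) and 4 (sulfasalazine, 4 µM). Fits of a comparison's own wells gave 9 (doxorubicin), 9 (simvastatin), 28 (naproxen, 80 µM) and 16 (medium). Vehicle of the same plate in batch 2 gave 7 (simvastatin) and no value for medium, which stands on both plates there. The 10 low concentrations with at most 3 calls each had 4 calls together, and 2 without a count minimum, 2 in batch 1, 7 in batch 2 and 32 from own wells. These fits differ in the number of wells, and the cause was not tested. Without 1 replicate the counts ran from 43 to 49 (acetaminophen), 31 to 39 (caffeine), 4 to 13 (chloramphenicol), 34 to 46 (diclofenac), 2 to 5 (doxorubicin), 21 to 27 (indomethacin), 11 to 16 (isoniazid), 24 to 28 (ketoconazole), 15 to 22 (naproxen, 2000 µM), 38 to 45 (ranitidine), 2 to 4 (simvastatin), 23 to 34 (sulfasalazine, 100 µM), 32 to 37 (valproic acid, 10000 µM), 43 to 48 (WY14643, 200 µM), 44 to 51 (WY14643, 8 µM), 8 to 16 (valproic acid, 400 µM), 3 to 17 (naproxen, 80 µM), 2 to 16 (sulfasalazine, 4 µM), 2 to 7 (medium) and 1 to 7 (the 10 low concentrations). Without the medium well with the fewest reads, an alternative chosen after seeing the data, medium gave 6. The share of reads on the members was 1.6% without the 10 highest probes. Of the 137 L2FC of named members, no call was lost or gained with DESeq2, its size factors, own wells, summed probes or any vehicle well left out. With batch 1 alone 22 lost their call, 9 with batch 2 alone and 3 with vehicle of the same plate in batch 2 (1 gained one). Losses were 1 each without a count minimum and in ST, and 4, 8 and 2 without treated replicate 1, 2 and 3 of each batch. Members named by range or largest change had to be called with the same sign in both batches. These losses therefore do not measure how often calls of members hold. Of the L2FC not called as reported, Ndufs7 with WY14643 at 8 µM was -0.056 with batch 2 alone, and Sdhd with acetaminophen -0.10 without replicate 3 and 0.30 without replicate 2. Of 75 medians of complexes, 0 changed sign with DESeq2 or its size factors, 9 with batch 1 alone, 11 with batch 2 alone and 6 with vehicle of the same plate in batch 2. In that order 2, 2, 24, 21 and 15 moved by more than 1 SD of the 2 batches' medians. That of complex II with caffeine was 0.25 in batch 1 and -0.35 in batch 2.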
